A study of Mus musculus with 2 samples.

Results

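Mitochondrial carriers and the mitochondrial protein import machinery were examined for chromatin regions recovered with an Otp antibody. Otp, or Orthopedia, is a transcription factor of the homeodomain class. The genes were all RefSeq protein-coding genes whose symbol starts with Slc25a, Timm or Tomm, 73 of 21887 on the nuclear chromosomes. Of these, 47 were carriers (Slc25a) and 26 carried the import prefixes (16 Timm and 10 Tomm). The data were CUT&RUN peak lists, in which an antibody tethers a nuclease to chromatin and the released DNA is sequenced. There was 1 library with the Otp antibody and 1 with IgG, an antibody with no target, both from wild-type adult paraventricular nucleus (PVN) of the mouse hypothalamus and labelled as neurons. Nuclei were isolated separately per sample by homogenisation and a sucrose cushion, and no sorting step is described in the labels. The series asks whether Otp binds at the promoter of Mc4r. Each antibody has 1 library, so all values below are without replicates and no p-values are given.

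Carriers are small proteins of the inner mitochondrial membrane that exchange nucleotides, phosphate, amino acids, carboxylates, cofactors and metals between cytosol and matrix. They are made in the cytosol and pass the outer membrane through the TOM complex. Small Timm chaperones then escort them across the intermembrane space to the TIM22 complex, which inserts them, while proteins with a cleavable presequence enter the matrix through the TIM23 complex and its motor. Neurons depend on oxidative metabolism, and most of these genes are transcribed in nearly every tissue.

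An Otp region was counted for a gene when its summit lay within 1 kb of either gene end. By this measure 43 of the 73 genes (58.9%) had a region, against 27.2% of all protein-coding genes. Genes in the same deciles of length gave 28.5%, or 20.8 genes in a list of this makeup. Of the carriers, 25 of 47 (53.2%) had a region against 14.1 from genes of like length, and of the import genes 18 of 26 (69.2%) against 6.73. The import genes were shorter (median 8853 bp, carriers 21491 bp), and the expected shares were close (25.9% and 29.9%). The higher share at import genes was not tested, since genes of 1 library are not replicates. It was not seen when regions within 1 kb of another protein-coding gene end were left out (import genes 38.5%, carriers 42.6%). None of the 73 genes had an IgG region within 1 kb of an end, as 0.379% of all protein-coding genes did, and the nearest lay 24476 bp from an end of Slc25a46.

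Sequences before the starts of 8 genes show the promoters of genes with strong regions and of genes with none. The first 6 are the 3 carriers and 3 import genes with the highest −log10 q (the authors' adjusted significance of a region) whose start was in the RefSeq promoter table of GRCm38.p6 (mm10). Slc25a5 and Timm50, which had no region, were added for contrast after their values were seen. Each run ends at the base before the start of transcription, except that bases inside the annotated gene were left out at Slc25a28 (125 bases printed) and Tomm40 (237 bases). The others are 250 bases long. Capitals mark the GC box GGGCGG and the ETS core CCGGAAG on either strand.
Slc25a28, chr19:43675007-43675131, reverse strand: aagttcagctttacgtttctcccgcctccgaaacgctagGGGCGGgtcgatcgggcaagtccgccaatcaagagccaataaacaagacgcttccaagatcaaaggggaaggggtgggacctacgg
Slc25a25, chr2:32451471-32451720, reverse strand: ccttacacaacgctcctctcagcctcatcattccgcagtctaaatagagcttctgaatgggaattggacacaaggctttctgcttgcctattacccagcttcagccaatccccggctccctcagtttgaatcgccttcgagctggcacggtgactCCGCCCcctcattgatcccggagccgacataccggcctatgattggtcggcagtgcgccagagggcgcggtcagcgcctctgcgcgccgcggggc
Slc25a42, chr8:70212282-70212531, reverse strand: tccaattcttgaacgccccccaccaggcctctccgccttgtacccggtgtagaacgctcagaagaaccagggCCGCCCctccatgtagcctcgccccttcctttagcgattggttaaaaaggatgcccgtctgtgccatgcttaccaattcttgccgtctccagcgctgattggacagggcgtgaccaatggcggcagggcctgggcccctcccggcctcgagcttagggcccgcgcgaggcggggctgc
Tomm40, chr7:19715443-19715679, reverse strand: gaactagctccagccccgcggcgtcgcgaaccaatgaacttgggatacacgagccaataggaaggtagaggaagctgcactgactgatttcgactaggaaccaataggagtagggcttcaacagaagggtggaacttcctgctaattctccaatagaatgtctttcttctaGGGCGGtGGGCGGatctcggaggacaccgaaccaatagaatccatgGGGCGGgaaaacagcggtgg
Timm10, chr2:84826771-84827020, forward strand: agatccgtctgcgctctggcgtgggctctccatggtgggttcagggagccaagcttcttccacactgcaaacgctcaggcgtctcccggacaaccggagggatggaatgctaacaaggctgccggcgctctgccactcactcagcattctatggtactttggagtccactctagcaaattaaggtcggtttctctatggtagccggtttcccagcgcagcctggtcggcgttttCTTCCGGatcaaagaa
Tomm70a, chr16:57121464-57121713, forward strand: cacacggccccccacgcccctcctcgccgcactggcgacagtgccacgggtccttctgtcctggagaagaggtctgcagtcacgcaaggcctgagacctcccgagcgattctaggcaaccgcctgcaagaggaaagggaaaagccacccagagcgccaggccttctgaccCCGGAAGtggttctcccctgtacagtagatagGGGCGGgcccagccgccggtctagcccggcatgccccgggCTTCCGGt
Slc25a5, chrX:36795347-36795596, forward strand: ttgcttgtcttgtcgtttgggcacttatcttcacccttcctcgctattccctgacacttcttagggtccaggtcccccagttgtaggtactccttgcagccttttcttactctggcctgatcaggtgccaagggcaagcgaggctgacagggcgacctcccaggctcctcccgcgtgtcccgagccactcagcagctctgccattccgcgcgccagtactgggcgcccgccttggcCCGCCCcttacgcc
Timm50, chr7:28312047-28312296, reverse strand: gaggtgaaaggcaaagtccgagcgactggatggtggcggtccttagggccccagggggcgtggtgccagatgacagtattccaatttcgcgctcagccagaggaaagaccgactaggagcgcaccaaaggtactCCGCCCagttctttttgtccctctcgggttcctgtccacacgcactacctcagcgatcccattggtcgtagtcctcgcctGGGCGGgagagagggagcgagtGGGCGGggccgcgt
Otp regions covered all the bases shown at Slc25a28 and Tomm40, 225 at Slc25a42, 189 at Timm10, 166 at Slc25a25 and 101 at Tomm70a. At Slc25a25 and Tomm70a these bases belong to the weaker of 2 regions, and the stronger lies wholly upstream of the stretch. A summit lay inside the stretch at Slc25a28, Slc25a25, Slc25a42 and Timm10. Those of Tomm40 and Tomm70a lay outside it. The stretch before Slc25a25 also falls within the annotated span of Naif1 and that before Timm10 within Smtnl1. GC boxes stood in 7 of the 8 stretches, with 3 each at Tomm40 and at Timm50, which had no region. Timm10 had no GC box and 1 ETS core, and Tomm70a had 2 ETS cores. The homeodomain core TAATTA was in none of the 8.

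**Figure D1:**
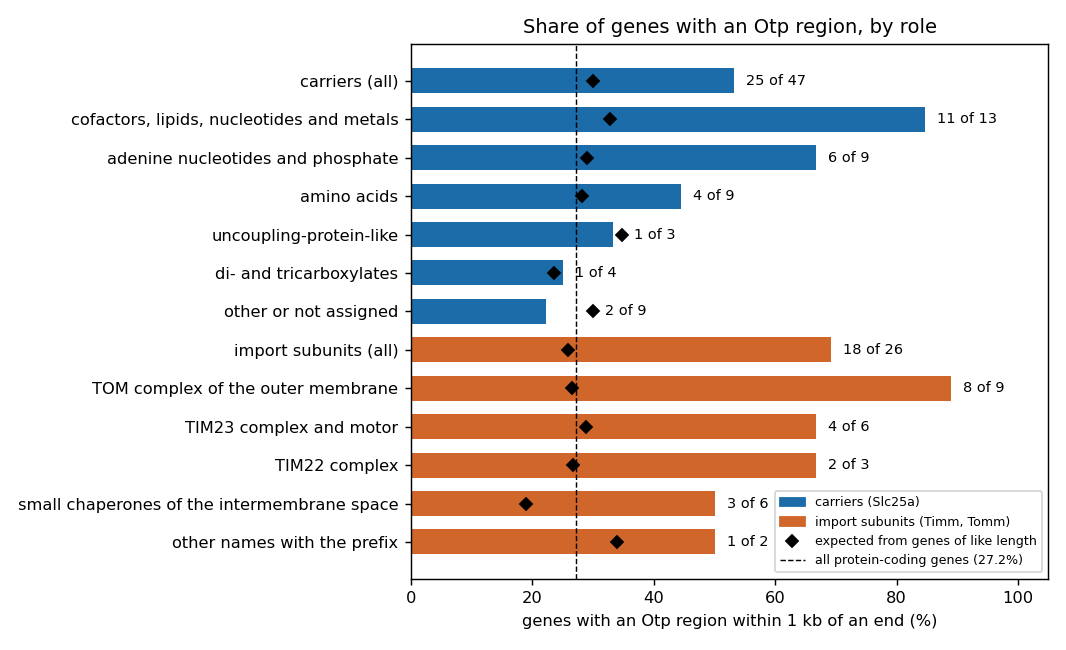
Share of genes with an Otp region within 1 kb of an end (percent, horizontal axis) by role, with counts beside the bars. Diamonds give the share expected from genes of like length and the dashed line is the 27.2% of all protein-coding genes; the TOM complex (8 of 9) and the carriers of cofactors, lipids, nucleotides and metals (11 of 13) had the highest shares.

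The TOM complex is the entry gate of the outer membrane, and 8 of its 9 genes had an Otp region against 2.38 from genes of like length. Tomm40 encodes the channel (gene ID 53333, chromosome 7, positions 19701313 to 19715442). Its region covered positions 19715415 to 19716096 with the summit 292 bp from the upper gene end and 305 bp upstream of the start. The fold enrichment at the summit, over the caller's background estimate, was 15.2. The pileup was 79 tags (reads or fragments, as the authors' caller counted; 95% Poisson interval 62.5 to 98.5). An end of Nectin2 also lay within 1 kb of that summit. Tomm40l, the paralogue of the channel, had the highest fold enrichment of all 73 genes, 22, with 65 tags (50.2 to 82.8). Its region, on chromosome 1 at positions 171222450 to 171222754, lay 110 bp from the upper gene end. These channel genes ranked 157 and 151 by −log10 q among the 11379 Otp regions.

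Among the receptors that bind incoming precursors, Tomm70a, which receives carriers, had 2 regions. The stronger had 26 tags (17 to 38.1) and lay 380 bp upstream of the start, with a fold enrichment of 12.8. The weaker had 14 tags (7.65 to 23.5) and lay 12 bp downstream. The presequence receptors Tomm20 and Tomm22 had weak regions of 11 tags each (5.49 to 19.7), with fold enrichments of 5.34 and 6.18. Their summits lay 7 bp and 51 bp upstream of the start. The small subunits that steady the channel all had a counted region. Tomm6 had 17 tags, Tomm7 had 13 and Tomm5 had 12, with fold enrichments of 6.06, 7.18 and 7.74. Ends of Frs3 and Prickle4 also lay within 1 kb of the Tomm6 summit. By both scalings set out below, the regions of Tomm5, Tomm7, Tomm20 and Tomm22 fell short of the 4 tags of the weakest IgG region. Tomm20l, a relative of Tomm20, was the TOM gene with no region, and the nearest lay 95779 bp away. Tomm34, a cytosolic co-chaperone that shares the prefix, had 24 tags (15.4 to 35.7) with the summit 3 bp from the gene end.

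In the TIM23 complex and its motor, 4 of 6 genes had a region against 1.73 from like length. Timm21, a subunit that contacts the TOM complex, had 25 tags (16.2 to 36.9) and a fold enrichment of 11. Timm17a, of the channel, had 15 tags (8.4 to 24.7) 77 bp upstream of the start. Its X-linked paralogue Timm17b had regions of 15 and 14 tags, 358 bp and 45 bp upstream, both nearer to an end of Pqbp1 than to its own. Timm44, which tethers the motor, counted through a region of 13 tags at its far end. That summit was 16609 bp downstream of the tabulated start and nearer to Ctxn1. The channel gene Timm23 and the receptor gene Timm50 had none, with the nearest regions at 20302 and 26741 bp.

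For carrier insertion, 2 of the 3 TIM22 genes had a region against 0.799 from like length. Timm22, the channel, had 15 tags (8.4 to 24.7) with the summit 61 bp upstream of a start. Timm10b had 12 tags (6.2 to 21) 18 bp upstream, in a stretch shared with Arfip2, whose end was nearer. Timm29 had none. Of the 6 small chaperones of the intermembrane space, 3 had a region against 1.14. Timm10 had 27 tags (17.8 to 39.3) and a fold enrichment of 13.6, and Timm13 had 29 tags (19.4 to 41.6) and 9.74. An end of Smtnl1 also lay within 1 kb of the Timm10 summit, and an end of Lmnb2 within 1 kb of the Timm13 summit. Timm8b had 11 tags (5.49 to 19.7) and shares its end with Sdhd, a subunit of succinate dehydrogenase. Timm9, the partner of Timm10 in its chaperone ring, had no region within 107523 bp. Timm8a1 and Timm8a2 had none either, nor did Timmdc1, a complex I assembly factor named with this prefix.

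**Figure D2:**
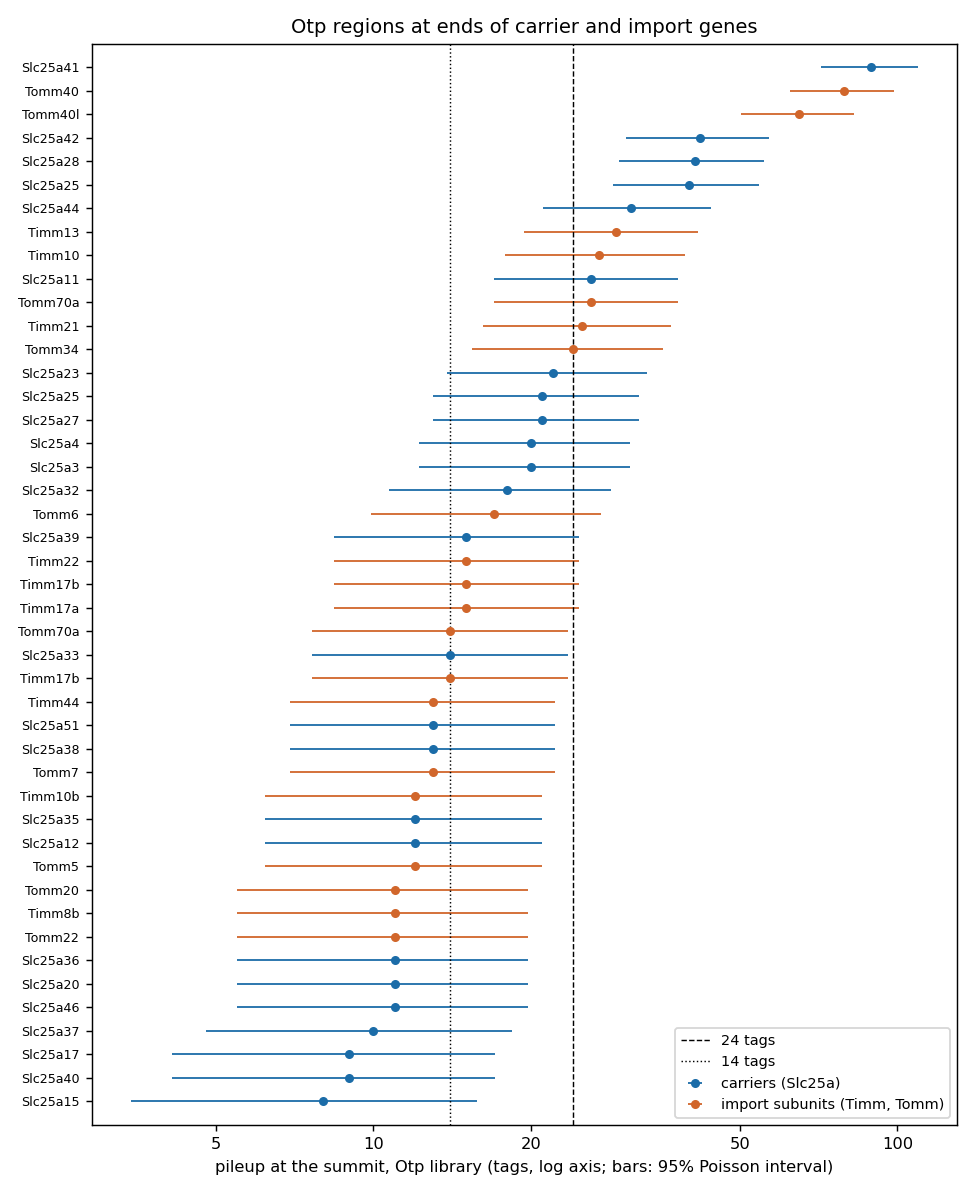
Pileup at the summit of 45 of the 46 Otp regions at ends of carrier (blue) and import (orange) genes, in tags on a log axis, with 95% Poisson intervals; genes with 2 regions appear on 2 lines. Values run from 8 tags at Slc25a15 to 89 at Slc25a41, and the vertical lines at 24 and 14 tags are the pileups that scale to the 4 tags of the weakest IgG region by 2 scalings.

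Of the carriers of adenine nucleotides and phosphate, 6 of 9 had a region against 2.61 from like length. The largest pileup of the 73 genes, 89 tags (71.5 to 109.5), was counted for Slc25a41, a relative of the ATP-Mg/phosphate carriers. Its summit was 904 bp from the gene end and nearer to Khsrp, an RNA-binding protein gene. It was also the summit farthest from an end that still counted, and the next beyond the bound was at 2415 bp, near Slc25a45. The neighbouring gene Slc25a23, an ATP-Mg/phosphate carrier 2056 bp from Slc25a41, had a region of its own with 22 tags (13.8 to 33.3). Slc25a25, of the same subfamily, had 2 regions. The stronger had 40 tags (28.6 to 54.5) and a fold enrichment of 12.8 at 638 bp from the gene end, and the weaker 21 tags (13 to 32.1) at 99 bp. Slc25a24, the remaining ATP-Mg/phosphate carrier, had none within 1 kb, with the nearest at 3108 bp.

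Of the ADP/ATP carriers only Slc25a4 had a counted region. No pileup is given at genes without a region, so a difference between these carriers was not tested. Slc25a4 had 20 tags (12.2 to 30.9) and a fold enrichment of 7.81, with the summit 48 bp upstream of the start. Its paralogue Slc25a5, on the X chromosome, had no region within 9266 bp, nor did the germ-cell paralogue Slc25a31 within 19376 bp. The phosphate carrier Slc25a3, which supplies ATP synthase, also had 20 tags (12.2 to 30.9), with a fold enrichment of 8.94 and the summit 170 bp upstream of the start. The peroxisomal carrier Slc25a17 had 9 tags (4.12 to 17.1) and a fold enrichment of 4.59, the lowest of the 46 regions.

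The carriers of cofactors, lipids, nucleotides and metals had regions at 11 of 13 genes, against 4.25 from like length. Iron is imported for haem and iron-sulfur clusters by the mitoferrins. Slc25a28, the widely expressed mitoferrin, had 41 tags (29.4 to 55.6) and a fold enrichment of 13.6. Slc25a37, the erythroid mitoferrin, had 10 tags (4.8 to 18.4) inside the gene, 502 bp from its end. Slc25a42, the coenzyme A carrier, had 42 tags (30.3 to 56.8) and a fold enrichment of 10.1, 191 bp upstream of the start. The folate and FAD carrier Slc25a32 had 18 tags 9 bp from its end, a stretch shared with Dcaf13. The pyrimidine nucleotide carriers Slc25a33 and Slc25a36 had 14 and 11 tags, and the glutathione carriers Slc25a39 and Slc25a40 had 15 and 9. An end of Dbf4 also lay within 1 kb of the Slc25a40 summit. The pyrimidine nucleotide pair and the glutathione pair thus each had a counted region at both genes. The pileup intervals overlapped within each of these pairs, which does not test whether they were alike. Those of the mitoferrins did not overlap. The carriers of NAD (Slc25a51) and acylcarnitine (Slc25a20) had 13 and 11 tags. By both scalings set out below, the regions of Slc25a20, Slc25a36, Slc25a37, Slc25a40 and Slc25a51 fell short of the 4 tags of the weakest IgG region. Slc25a16 and Slc25a26, the S-adenosylmethionine carrier, had no region.

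Of the amino acid carriers, 4 of 9 had a region against 2.53 from like length. Slc25a44, a branched-chain amino acid carrier, had 31 tags (21.1 to 44) and a fold enrichment of 12.1. The glycine carrier Slc25a38 had 13 tags (6.92 to 22.2) 464 bp downstream of the start, and the ornithine carrier Slc25a15 had 8 tags (3.45 to 15.8), the fewest of the 46. Of the aspartate/glutamate carriers that serve the malate-aspartate shuttle, Slc25a12, the form of brain and muscle, had 12 tags (6.2 to 21). Slc25a13, the form of liver, had no region within 233310 bp. By both scalings set out below, the regions of Slc25a12, Slc25a15 and Slc25a38 fell short of the 4 tags of the weakest IgG region. The glutamate carriers Slc25a22 and Slc25a18, the basic amino acid carrier Slc25a29 and the ornithine carrier Slc25a2 had none.

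The remaining carrier groups lay near the background. Of the di- and tricarboxylate carriers, 1 of 4 had a region against 0.94 from like length. It was at the oxoglutarate carrier Slc25a11 (26 tags, 17 to 38.1) and lay nearer to an end of Rnf167. The citrate carrier Slc25a1, the dicarboxylate carrier Slc25a10 and the oxodicarboxylate carrier Slc25a21 had none. Of the carriers related to uncoupling proteins, 1 of 3 had a region against 1.04. This one, Slc25a27, which brain expresses, had 21 tags (13 to 32.1) and a fold enrichment of 11.3, 7 bp from its end and in a stretch shared with Cyp39a1. Slc25a14, also expressed in brain, and Slc25a30 had none at an end. Of the 9 carriers with another or no assigned substrate, 2 had a region, against 2.7 from like length. They were Slc25a46, an outer membrane protein of mitochondrial dynamics, with 11 tags and Slc25a35 with 12 tags. The 7 without were Slc25a34, Slc25a43, Slc25a45, Slc25a47, Slc25a48, Slc25a53 and Slc25a54.

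The regions of these genes resembled other regions at gene ends in strength. Their median fold enrichment was 7.25 (interquartile range 6.22 to 9.81), against 7.59 (6.09 to 9.88) at 5481 other gene-end regions. The median pileup was 15 tags in each. By −log10 q, 9 of the 46 (19.6%) lay in the top 10% of the Otp list, against 13.4% of the other gene-end regions, and 27 (58.7%) in the upper 50%, against 61.7%. The import and carrier regions had medians of 15 and 14.5 tags. The IgG library was shallower, and the pileups had to be scaled to set them beside it. Scaled by the background of the libraries (ratio 5.86), 13 of the 46 regions reached the 4 tags of the weakest IgG region, and scaled by the regions of both lists (0.305), 28 did. These include Tomm40, Tomm40l, Slc25a28 and Slc25a42, whose pileups corresponded to 13.5, 11.1, 6.99 and 7.16 IgG tags by the first scaling. By the second scaling alone 15 more reached 4 tags. That ratio came only from regions also called with IgG, so these 15 are less certain. Reaching 4 tags was judged from the pileup without its interval, so it does not by itself show a difference from IgG. The 24 tags of Tomm34 (15.4 to 35.7), for instance, corresponded to 4.09 IgG tags by the first scaling. At the other 18, a difference from IgG was not detectable at this depth. They were the regions of Timm8b, Timm10b, Timm44, Tomm5, Tomm7, Tomm20 and Tomm22. The carriers among them were Slc25a12, Slc25a15, Slc25a17, Slc25a20, Slc25a35, Slc25a36, Slc25a37, Slc25a38, Slc25a40, Slc25a46 and Slc25a51.

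Many genes were marked close to the end. Of the 43 strongest regions, 26 (60.5%) had the summit within 100 bp of an end, against 54% for other protein-coding genes with a region, and the medians were 91 and 90 bp. For 31 of the 43 genes the promoter table gave the start. In 29 the strongest summit lay within 1 kb of it, 23 upstream and 6 downstream, so 79.3% were upstream against 84.5% for other genes. The exceptions were Timm44 and Slc25a39, whose summit was 97 bp from the gene end but 1061 bp upstream of the tabulated start. In 13 of the 43 genes (30.2%) a region also lay within 1 kb of another protein-coding gene, near the 29.6% of other genes with a region. The strongest region was nearer to that other gene in 5: Slc25a11, Slc25a41, Timm10b, Timm17b and Timm44.

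**Figure D3:**
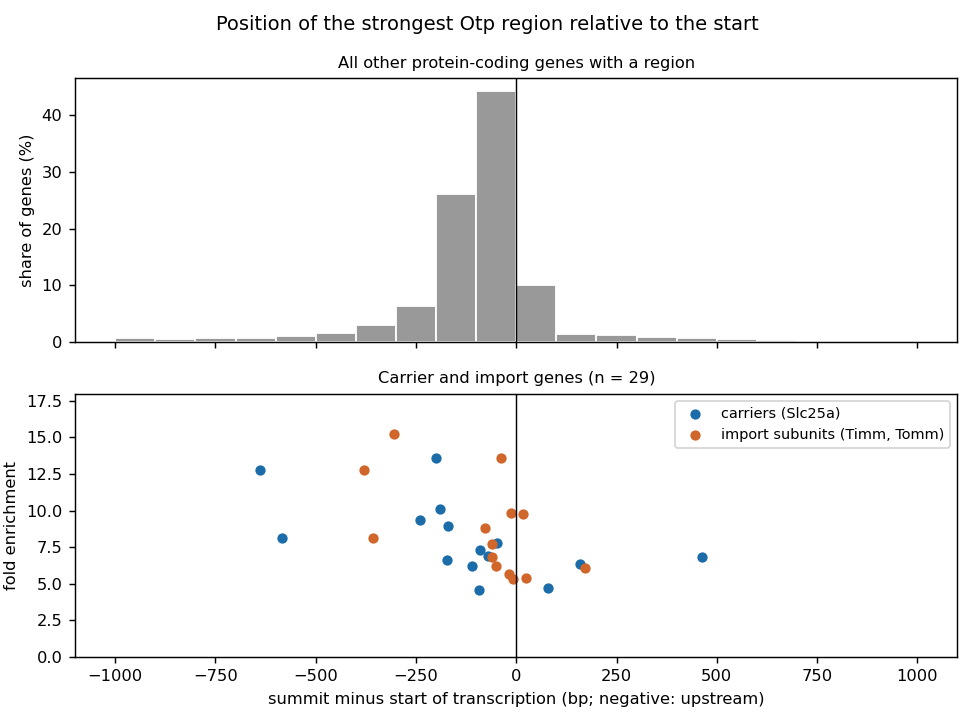
Distance from the start of transcription to the summit of the strongest Otp region (bp, negative upstream), as a share of other protein-coding genes per 100 bp (top) and for 29 carrier and import genes against fold enrichment (bottom). Most summits lay just upstream of the start, and the carriers Slc25a25 and Slc25a23 lay farthest upstream.

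Of the 30 genes without a region at an end, 25 had none within 5 kb. Slc25a30 and Slc25a53 had a region deep inside the gene, 10649 and 11999 bp from the nearer end, with 12 and 11 tags. Outside these genes the nearest regions lay 2884 and 4133 bp from an end. Median lengths of the genes with and without a region were 14132 and 15380 bp. On the X chromosome, 1 of 6 genes had a region (16.7%, 1.73 genes from like length), near the 17.3% of other X-linked genes. It was Timm17b, whose regions lay nearer to Pqbp1. On the autosomes 42 of 67 (62.7%) had a region, against 19.1 from like length. Of 5 pairs of genes lying within 50 kb of each other, Tomm20l and Timm9, Slc25a29 and Slc25a47, Slc25a54 and Slc25a24, and Slc25a43 and Slc25a5 had no region at either gene. Slc25a41 and Slc25a23 both counted, Slc25a41 through the region nearer to Khsrp. Several genes without a region are known for restricted expression, such as Slc25a31 in germ cells and Slc25a47 in liver. Others, such as Timm23, Timm50, Timm9 and Slc25a5, are needed in most cells. Any relation of the regions to expression was not tested.

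Promoter composition differed between the genes with and without a region. The promoter window, 250 bases before to 50 after the start, was available for 59 of the 73 genes. Here and for the motifs below, a region at either gene end counted, so it need not lie at the promoter. That of Timm44 lay 16609 bp downstream of the tabulated start and that of Slc25a39 1061 bp upstream. The ratio of observed to expected CpG had a median of 0.808 (interquartile range 0.66 to 0.906) in 31 genes with a region and 0.58 (0.453 to 0.819) in 28 without. In other protein-coding genes the medians were 0.805 and 0.376. At a ratio of at least 0.6, 24 of 36 genes (66.7%) had a region, against 47.7% of other genes. Below it, 7 of 23 did (30.4%), against 9.65%. These were Slc25a12, Slc25a15, Slc25a17, Slc25a20, Timm44, Tomm5 and Tomm6. When the expected number was taken from promoters of like CpG ratio, it was 22.3 of 59 against 31 counted, and 17.5 from length. For the carriers it was 12.7 against 16 counted, and for the import genes 9.66 against 15. The count exceeded the expectation from CpG ratio by less than that from length, and the part of CpG content in the result was not tested.

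**Figure D4:**
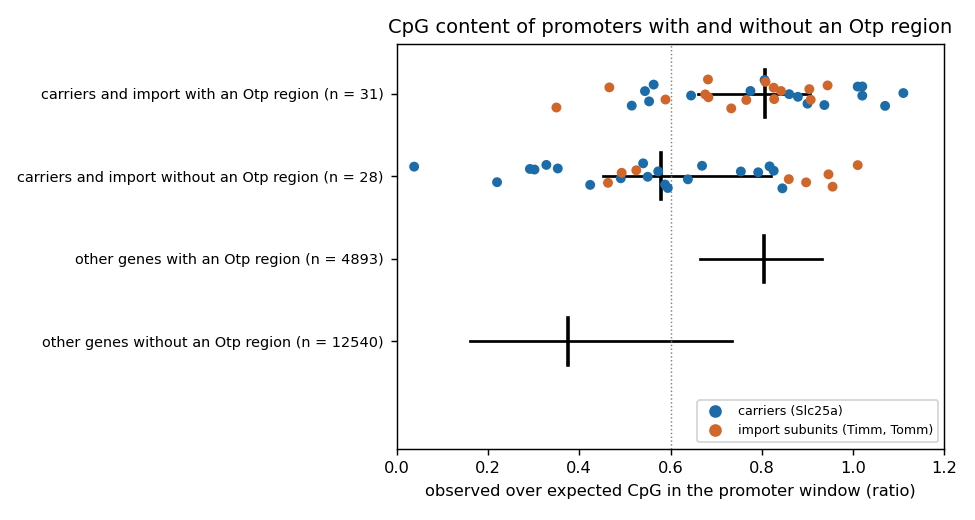
Ratio of observed to expected CpG in the promoter window for carrier (blue) and import (orange) genes with and without an Otp region, 1 point per gene, with the median (vertical bar) and interquartile range (horizontal line), and the same for other protein-coding genes. The dotted line is 0.6; genes with a region had medians of 0.808 and 0.805, and those without 0.58 and 0.376.

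The 300-base windows were searched on both strands for 6 motifs. The GC box GGGCGG, the letters bound by Sp factors, was in 41 of 59 (69.5%), against 46.3% of all promoters, and in 23 of 31 with a region (74.2%) and 18 of 28 without (64.3%), where all promoters gave 70% and 37%. The ETS core CCGGAAG was in 17 of 59 (28.8%), against 11.9% of all promoters. It was in 12 of 31 with a region (38.7%) and 5 of 28 without (17.9%), where all promoters gave 21.3% and 8.25%. The homeodomain core TAATTA was in none of the 59, against 4.69% of all promoters and 2.32% of those with a region. The NRF1 site and the YY1 core were each searched as a single exact run of letters, so variant sites were not counted. The exact NRF1 letters were in none of the 59, against 1.33% of all promoters. With so low a share, their absence does not show that these promoters lack NRF1 sites. The cAMP response element TGACGTCA was in Slc25a36 alone and the YY1 core in Timm50 alone. None of the 6 contains another, and a match is a description of the window.

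Other genes of mitochondrial transport gave a comparison. Of 34 listed, 18 (52.9%) had a region, against 10.3 from like length. Carriers with other names had one at Mtch2 (31 tags) and Mtch1 (23 tags), which act in the outer membrane, and at none of the uncoupling protein genes Ucp1, Ucp2 and Ucp3. Pyruvate carrier, sideroflexin and outer membrane channel genes had one in 8 of 10, among them both pyruvate carrier genes. Mpc2 had the largest pileup, 77 tags, nearer to Dcaf6, and Mpc1 had 15. The import motor, sorting, relay and processing genes had one in 8 of 19. The motor chaperone Hspa9 had 44 tags and a fold enrichment of 15.1 and its exchange factor Grpel1 had 27 and 10.3, while the processing peptidase genes Pmpca and Pmpcb had none. Solute carrier genes outside the Slc25a family, 328 in number, had one in 65 (19.8%), against 103.8 from like length. Peak lists do not measure expression, so the labelled cell type was checked only by regions: 3 of 5 pan-neuronal genes had one (1.44 from like length), 2 of 6 PVN neuron genes (1.39) and 1 of 5 oligodendrocyte genes (1.45). None of 5 each did for astrocytes (1.61), microglia (1.48) and endothelium (1.28). Of the PVN genes, Sim1 and Trh had one, and Otp, Avp, Crh and Oxt had none. These small counts do not settle the cell type.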

How the data were processed

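Each sample has 1 narrowPeak list. The tools MACS2, Bowtie2, SAMtools, Picard and Trimmomatic and the build mm10 are named per the submitters' processing notes. Versions, settings, duplicate handling and any control library were not given in the sources used here. The authors deposited a fold enrichment (a ratio over the caller's background), a −log10 p and a −log10 q per region; the deposited display score was not used. The Otp list held 11379 regions and the IgG list 291. Total depth is unknown.

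Pileups were solved from the deposited fold and −log10 p as the whole number matching within 0.001, with the next missing by over 0.005. This worked for 98.3% of Otp and 90% of IgG regions. Genome backgrounds (the lowest local value shared by at least 3 regions) were 0.512 and 0.0873 tags, a ratio of 5.86; at 226 regions of both lists IgG pileups were a median 0.305 of the Otp pileups. Poisson intervals cover counting error only, since PCR copies are not independent molecules. Genes came from RefSeq GRCm38.p6, and mitochondrially encoded genes were left out. Expected shares are those of other genes in the same 10 length classes, with no draws. The pileup solution and the counting at gene ends were tested on simulated data. Every Timm and Tomm gene and every carrier was named, except 1 carrier that is counted but not reported here by name; the 10 carriers highest in −log10 q were planned in full. Members and lists were chosen with earlier results of these data known. Python 3.11.15, numpy 2.4.6, pandas 2.3.3, scipy 1.17.1 and matplotlib 3.10.9 were used.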

Additional observations from a re-analysis of the deposited data

How the results depend on the processing

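The number of the 73 genes with a region was 39 within 500 bp (25.1% of all genes had one), 48 within 5 kb (34.4%), 39 with −log10 q from 5 up (23.3%) and 41 with a fold enrichment from 5 up (25.7%). It was 38 when a region counted only for the gene with the nearest end (23.8%) and 43 without regions that overlap IgG (26.9%). At a −log10 q of at least 10 it fell to 20 (11 carriers and 9 import genes, against 7.02 and 3.29 from like length and 13.4% of all genes). Only starts of transcription in the promoter table gave 16 of 36 carriers (11.8 from like length, 29.5% of all genes), a smaller set by construction, and 14 of 23 import genes. Any region within 1 kb of a tabulated start counted in this setting, whether or not the gene had a region at an end. Counting only regions with no other protein-coding gene end within 1 kb was a setting chosen after seeing the data (19.4% of all genes). It left 10 of 26 import genes (38.5%, 4.45 from like length) and 20 of 47 carriers (42.6%, 9.96 from like length). The import genes thus did not have the higher share in this setting. In every one of these settings carriers and import genes exceeded their length-based expectation. For the 73 genes that expectation was 28.5% by decile, 28.8% by the 200 genes nearest in length and 27.2% without matching. An expectation by CpG ratio, chosen after seeing the data, covered only the 59 genes with a tabulated promoter. It was 37.9%, where length gave 29.6% and 52.5% had a region. No region of the 73 genes overlapped IgG under either overlap rule. Overlap was rare throughout: by 1 bp, 66 of 5481 other gene-end regions and 280 of all 11379 Otp regions overlapped IgG. An absence among 46 regions therefore says little about these genes. No paired analysis was possible because there is a single library of each kind, for which reason none was omitted either.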
